A study of Mus musculus with 4 samples.

Results

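Myosins and actin filament regulators are described here in T follicular helper (Tfh) and non-Tfh cells of the mouse. The members were all genes whose symbol placed them among the unconventional myosins (Myo), the class 2 myosin heavy chains (Myh), the myosin light chains (Myl), the coronins, the barbed-end cappers (Capg and the Capz genes), the tropomyosins, the Arpc subunits, the formins of the Diaph and Fmnl families, the profilins, the cofilins and the twinfilins. Of 39179 gene identifiers in the count files 89 carried such a symbol. The rule leaves out 1 coronin gene, and 87 of the 88 others are described. The symbol alone placed a gene among the members, but the rule was set with earlier results of these data known. The members took 0.965 to 1.05% of all counts in a library.

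The cells were OT-II T cells of the CD4 lineage, whose receptor, encoded by a transgene, recognises ovalbumin, and Thy-1.1 told them from the cells of the C57BL/6 hosts that received them. All hosts had been immunised under the skin with ovalbumin to which nitrophenol was coupled, and the inguinal lymph nodes were pooled on day 8. Both groups were therefore activated transgenic cells with high CD44 from immunised hosts, and no resting or unimmunised group was analysed here. The Tfh group was sorted as positive for CXCR5 and PD-1, and the non-Tfh group as negative for both. Each group had 2 libraries, T32 and T53. What these numbers mark, and whether separate mice stand behind them, is not in the labels, so that p-values reflect the spread among these libraries only, which may be technical.

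Actin filaments grow at the barbed end and shrink at the pointed end. Profilin delivers monomers, formins lengthen unbranched filaments, the Arp2/3 complex starts branches, cappers stop barbed-end growth, and cofilin cuts old filaments. Tropomyosins and coronins bind along filaments, and myosins pull on them or tether membranes and cargo to them. In T cells this machinery shapes the leading edge and the uropod during crawling, and the contact with an antigen-presenting cell.

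Library totals ran from 5725358 counts (Tfh T53) up to 13360563 (non-Tfh T32). Trac, Cd4 and Cd3e, which define CD4 T cells, were abundant in every library, with Cd4 at 1047 and 1063 CPM in Tfh T32 and T53 and 928 and 916 CPM in non-Tfh T32 and T53. CPM are counts scaled to library size, with library sizes adjusted by the TMM method so that most genes are level between libraries. Bcl6, the transcription factor of the Tfh program, stood at 249 and 353 CPM in Tfh and at 35.0 and 45.4 CPM in non-Tfh libraries. Markers of other cells were low, apart from Ighm among the B cell genes, Pecam1 among the endothelial genes and Ttn among the striated muscle genes, which made up 97.2, 97.3 and 96.6% of the summed level of their lists. Cd14, Clec9a, Siglech, Pf4, Kdr and Ckm were at 0 in all 4. Pax5, a B cell factor, was called higher in Tfh cells (5.12 and 5.25 CPM against 0 and 0.450 CPM), and its bearing on the members was not tested.

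Of the 87 members 19 had no count in any library and 10 had 1 to 9 counts in all. The filter on low counts passed 51, of which edgeR called 9 at an adjusted p of 0.05. Coro2a, Capg, Myo1f, Myo10, Myo1g and Myo5a were lower in Tfh cells, and Myh3, Myo18a and Twf1 were higher. These 3 higher members stand beside a background of 523 of 11702 genes called higher (4.47%), and the 6 lower members beside 471 called lower (4.02%). In either direction 8.49% of all genes tested were called. With 2 libraries against 2, groups that do not overlap are common. They were found for 6108 of the 11702 genes tested and for 31 of the 51 tested members. The median log2 fold change was -0.02 over the tested members and -0.01 over all genes tested. Myh3 and Coro2a passed the filter through the group in which they were high, so the count over the tested members is a description and not support for a change of the set.

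The calls are given here by level and by family, as a description only. Among the 31 tested members with a mean of at least 50 CPM, 2 were called higher and 1 lower (9.68%), against 10.3% of the 3788 genes of such a level. Among the 20 below 50 CPM, 1 was called higher and 5 lower (30%), against 7.62% of 7914 genes. Myh3 and Coro2a, which passed the filter through the group in which they were high, are among these calls. That share is therefore no support for a change of the members of low level. By family, 6 of the 16 tested myosin heavy chains were called, 2 higher and 4 lower, and 3 of the 31 tested members other than myosins, 1 higher and 2 lower. Neither the difference between levels nor that between families was tested.

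**Figure D1:**
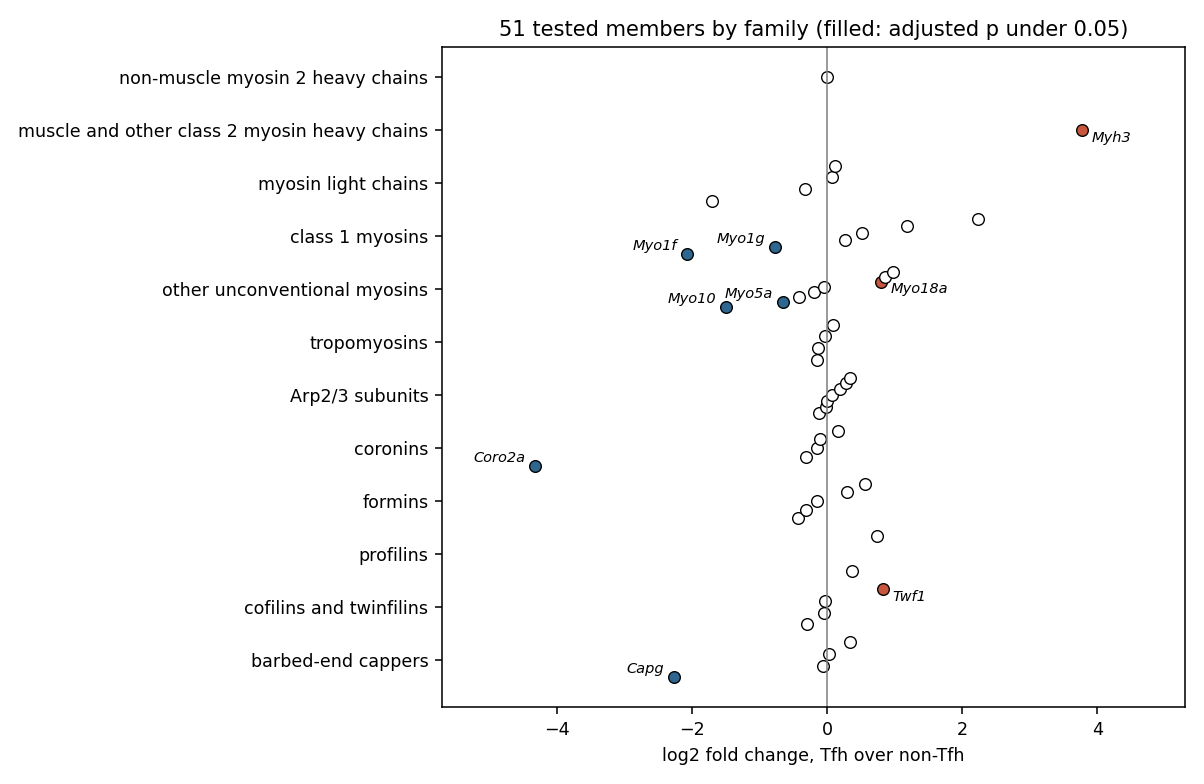
Log2 fold change (Tfh over non-Tfh) of the 51 tested members, 1 point per gene, in rows by family; filled points have an adjusted p under 0.05 and are named. The 3 called higher and 6 called lower lie mostly among the myosins, while all points of the Arp2/3 subunits and tropomyosins are open and within 0.34 of 0.

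Coro2a, Capg and Myo1f had the largest decreases, and these were also the 3 members whose call held under every alternative processing and with any library left out. The 250 bases before their start sites in RefSeq (GRCm38.p6) are shown because the 3 genes fell together. Capitals mark matches on either strand to GGGCGG, the GC box bound by Sp factors, to TGTGGT, the core site of Runx factors, and to CAGGTG, an E-box. The windows are chr4:46601930-46602179 on the minus strand for Coro2a, chr6:72549397-72549646 on the plus strand for Capg and chr17:33555457-33555706 on the plus strand for Myo1f.
Coro2a: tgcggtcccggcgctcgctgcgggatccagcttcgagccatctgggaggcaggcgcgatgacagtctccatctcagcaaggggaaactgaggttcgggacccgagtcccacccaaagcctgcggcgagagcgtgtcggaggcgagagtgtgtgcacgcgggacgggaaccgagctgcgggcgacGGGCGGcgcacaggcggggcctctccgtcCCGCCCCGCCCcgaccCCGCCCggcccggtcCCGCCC
Capg: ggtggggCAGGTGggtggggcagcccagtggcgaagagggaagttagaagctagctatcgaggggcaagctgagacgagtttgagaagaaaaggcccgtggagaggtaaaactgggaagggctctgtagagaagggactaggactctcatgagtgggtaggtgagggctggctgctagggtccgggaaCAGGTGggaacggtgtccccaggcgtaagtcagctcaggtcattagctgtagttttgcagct
Myo1f: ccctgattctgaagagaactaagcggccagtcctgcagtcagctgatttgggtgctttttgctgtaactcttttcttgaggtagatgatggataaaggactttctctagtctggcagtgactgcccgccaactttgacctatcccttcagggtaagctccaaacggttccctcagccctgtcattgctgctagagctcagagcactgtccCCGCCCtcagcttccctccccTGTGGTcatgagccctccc

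The 3 windows differed in letters. Coro2a had a GC content of 73.6%, against a median of 52.4% over all 32851 windows, and 5 matches to GGGCGG, some of them sharing bases. Myo1f had 1 match to GGGCGG and 1 to TGTGGT. RefSeq lists 2 windows for Coro2a, and the one shown is that nearer to the start of the Ensembl gene. Capg had 2 matches to CAGGTG and none to the other 2 motifs, and its RefSeq start lies 5256 bases from the start of the Ensembl gene. RefSeq windows were found for 75 of the 87 members, among them all 9 called. The RefSeq start used for Myo18a, called higher, lies 13989 bases from the start of the Ensembl gene. GGGCGG occurred in 4 of the 6 lower, 1 of the 3 higher and 24 of the 36 uncalled tested members, and in 32.7% of all windows. TGTGGT occurred in 1 of 6, 1 of 3 and 5 of 36 (14% of all windows), and CAGGTG in 1 of 6, 0 of 3 and 3 of 36 (17.2%). The CArG box bound by serum response factor, a regulator of many actin genes, was found in none of the 9 called members and in 2 of the 36 uncalled ones (1.47% of all windows). A match is a run of letters and not a binding site.

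**Figure D2:**
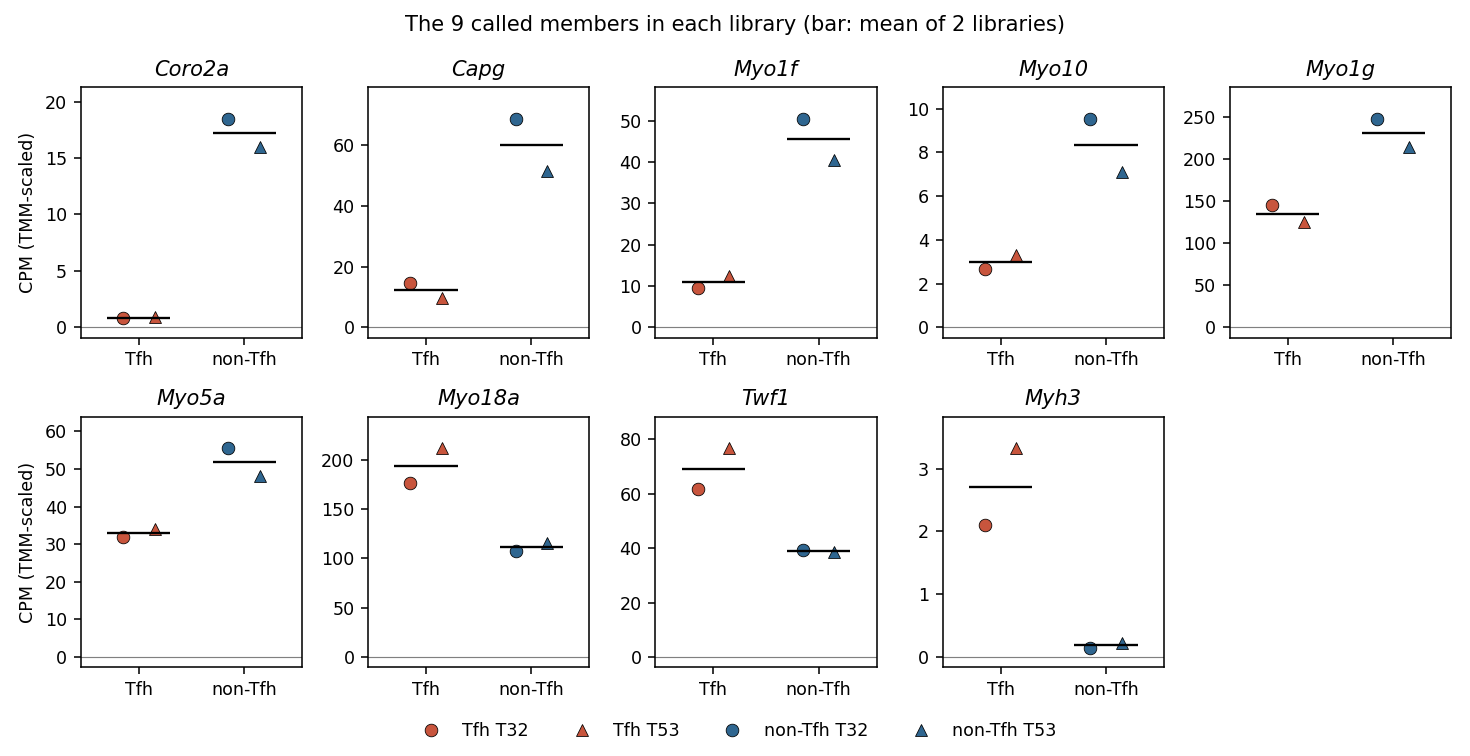
TMM-scaled CPM of the 9 called members in each library, with circles for T32, triangles for T53 and a bar at the mean of the 2 libraries of a group. In each panel the Tfh and non-Tfh points do not overlap, which also holds for 6108 of all 11702 genes tested. Coro2a is under 1 CPM in both Tfh libraries.

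The conventional motor of the T cell cortex, non-muscle myosin 2, was not called. Its heavy chain Myh9 was at 2042 and 2497 CPM in Tfh T32 and T53 and at 2145 and 2416 CPM in non-Tfh T32 and T53. The groups overlapped, and the log2 fold change was -0.01 ± 0.169 (SE; adjusted p = 0.988). Per kilobase of exon Myh9 made up at least 99.95% of the non-muscle heavy chains in every library. Myh10 had 4 counts over the Tfh and 11 over the non-Tfh libraries, and Myh14 had none.

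The light chains that pair with this motor were abundant and uncalled. Myl6, an essential light chain, stood at 346 and 307 CPM in Tfh and 340 and 282 CPM in non-Tfh libraries. The regulatory light chain Myl12a stood at 145 and 132 CPM in Tfh and 143 and 113 CPM in non-Tfh libraries. Its near copy Myl12b stood at 226 and 166 CPM against 268 and 226 CPM, with groups that met but did not overlap (log2 fold change -0.33 ± 0.178, adjusted p = 0.355). Reads of Myl12a and Myl12b may be split between them by the counting, so their separate values are uncertain. Myl4, an atrial and embryonic light chain, was at 0.755 and 0.525 CPM in Tfh and 1.57 and 2.93 CPM in non-Tfh libraries (log2 fold change -1.70 ± 0.538, adjusted p = 0.121). Of the other light chains Myl6b had 10 counts in Tfh and 4 in non-Tfh libraries, Myl10 had 2 and 0, and the muscle chains Myl1, Myl2, Myl3, Myl7 and Myl9 had none. Of the 4 tested light chains edgeR, DESeq2 and limma-voom called none, and 1 had an unadjusted p under 0.05 in edgeR.

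Among the sarcomeric and other class 2 heavy chains Myh3, the embryonic skeletal muscle myosin (gene ENSMUSG00000020908, chromosome 11, 67078300 to 67102291), was called at a low level. It was at 2.10 and 3.32 CPM in Tfh T32 and T53 and at 0.149 and 0.225 CPM in non-Tfh T32 and T53. Both Tfh libraries lay above both non-Tfh libraries, with 44 counts against 4 in all. The log2 fold change was 3.78 ± 0.591 (13.7-fold, adjusted p = 0.0148), and without Tfh T53 it was 3.47 with an adjusted p of 0.062. The summed striated muscle markers were 25.3 and 75.0 CPM in Tfh and 26.9 and 41.1 CPM in non-Tfh libraries, almost all Ttn, with Ckm, Mb, Actc1 and Tnni2 at 0 in every library. Tnnt3 was at 0.419 and 0.175 CPM in Tfh and 1.04 and 1.01 CPM in non-Tfh libraries. Tnnt1 was at 0.923 and 0.700 CPM against 0.969 and 0.450 CPM. No gene of this marker list was called, and its bearing on Myh3 was not tested. No other gene of the Myh3 family was tested. Myh8 had 7 counts in Tfh and 13 in non-Tfh libraries, Myh11 6 and 6, Myh7b 4 and 0 and Myh1 1 and 0, while Myh2, Myh4, Myh6, Myh7, Myh13 and Myh15 had none.

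Class 1 myosins are single-headed motors that bind the plasma membrane through a basic tail and set its tension. Per kilobase of exon their summed level was 36.8 and 35.5 CPM in Tfh T32 and T53 and 54.9 and 48.3 CPM in non-Tfh T32 and T53. The lower sum in Tfh cells came from Myo1g and Myo1f, the most and the second most abundant of the 7 genes per kilobase in non-Tfh cells, while the 4 other tested genes had higher means in Tfh cells.

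Myo1g, a motor found mainly in blood cells (ENSMUSG00000020437, chromosome 11, 6506548 to 6520965), was at 145 and 126 CPM in Tfh and 248 and 215 CPM in non-Tfh libraries. The groups did not overlap, and the gene fell by 0.77 ± 0.136 on the log2 scale (1.71-fold, adjusted p = 0.0212). Without Tfh T53 the log2 fold change was -0.66 and the adjusted p 0.119. Myo1f, a long-tailed class 1 motor of leukocytes (ENSMUSG00000024300, chromosome 17, 33555707 to 33607764), was at 9.56 and 12.4 CPM in Tfh and 50.6 and 40.6 CPM in non-Tfh libraries. Both non-Tfh libraries stood above both Tfh libraries, and the gene fell by 2.08 ± 0.199 (4.22-fold, adjusted p = 0.00297). Myo1f is also expressed by myeloid cells. The summed macrophage and monocyte markers were 5.45 and 5.95 CPM in Tfh and 4.77 and 9.45 CPM in non-Tfh libraries, with Cd14 at 0 and 7 of 10 markers under 1 CPM throughout. The genes in this sum differed in direction. Cd68, 36.1% of it, was at 3.69 and 2.45 CPM in Tfh and 2.31 and 0.788 CPM in non-Tfh libraries. Lyz2 was at 1.09 and 1.75 CPM against 0.149 and 4.39 CPM. Itgam, of this list, was called lower and was at 0.168 and 0.525 CPM in Tfh and 2.16 and 2.03 CPM in non-Tfh libraries.

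Myo1c, which links membranes and vesicles to actin, was at 69.6 and 55.8 CPM in Tfh and 45.3 and 42.3 CPM in non-Tfh libraries. The groups did not overlap, but the log2 fold change of 0.52 ± 0.148 had an adjusted p of 0.0903. Myo1h was at 15.7 and 25.2 CPM against 6.86 and 11.1 CPM (1.18 ± 0.329, adjusted p = 0.0902), and 25.8% of its exon bases lie opposite exons of Kctd10, which was at 57.6 and 67.5 CPM in Tfh and 75.2 and 71.8 CPM in non-Tfh libraries. Myo1d had a log2 fold change of 2.24 (adjusted p = 0.103) and Myo1e, whose groups overlapped, one of 0.26 (adjusted p = 0.827). Myo1a had 6 counts in Tfh and 4 in non-Tfh libraries.

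Through these shifts the makeup of class 1 differed between the groups. Myo1f made up 5.22 and 7.05% of the summed length-scaled level in Tfh and 18.5 and 16.9% in non-Tfh libraries. Myo1g made up 56.5 and 50.9% against 64.9 and 63.9%, and Myo1c 28.7 and 23.9% against 12.5 and 13.3%. None of these shares overlapped between groups. An exact permutation test of 2 libraries against 2 cannot give a two-sided p below 0.333, so the shares are described only.

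**Figure D3:**
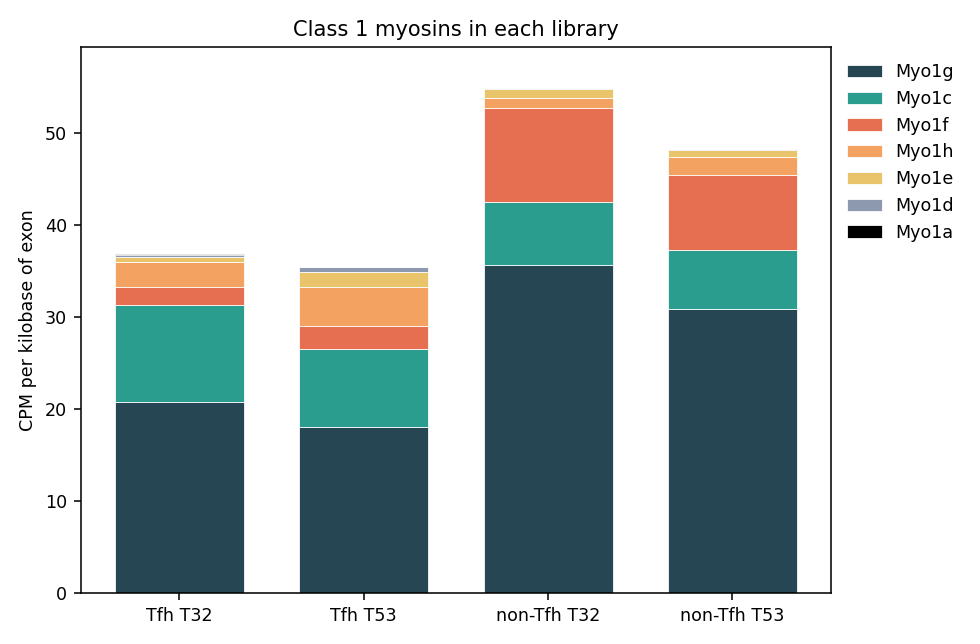
Stacked CPM per kilobase of exon of 7 class 1 myosins in each library. Both non-Tfh bars (54.9 and 48.3) are taller than both Tfh bars (36.8 and 35.5), with thicker Myo1g and Myo1f layers and a thinner Myo1c layer.

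The other unconventional myosins carry cargo, build filopodia or scaffold the cortex. Their summed length-scaled level was 53.2 and 55.3 CPM per kilobase in Tfh and 52.2 and 58.1 in non-Tfh libraries, so that the groups overlapped. Within it Myo18a rose and Myo5a and Myo10 fell.

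Myo18a, which lacks strong motor activity and joins the filaments of non-muscle myosin 2 (ENSMUSG00000000631, chromosome 11, 77763246 to 77865980), was at 176 and 211 CPM in Tfh and 107 and 116 CPM in non-Tfh libraries. The lowest Tfh value exceeded the highest non-Tfh value, and the log2 fold change was 0.80 ± 0.133 (1.74-fold, adjusted p = 0.0181). Without Tfh T53 it was 0.68 with an adjusted p of 0.0756. Its share of this family was 20.7 and 23.8% in Tfh and 12.8 and 12.4% in non-Tfh libraries with the length of all exons, and 34.4 and 38.5% against 22.7 and 22.2% with that of the longest transcript, without overlap either way.

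Myo5a, the vesicle transporter behind melanosome movement (ENSMUSG00000034593, chromosome 9, 75071015 to 75223688), was at 31.9 and 33.9 CPM in Tfh and 55.5 and 48.2 CPM in non-Tfh libraries. The groups did not overlap, and it fell by 0.66 ± 0.137 on the log2 scale (1.58-fold, adjusted p = 0.0366). The adjusted p was 0.172 without Tfh T32, 0.129 without Tfh T53 and 0.094 without non-Tfh T32, with log2 fold changes from -0.69 to -0.55. Myo10, the motor of filopodial tips (ENSMUSG00000022272, chromosome 15, 25622525 to 25813673), was at 2.68 and 3.32 CPM in Tfh and 9.55 and 7.09 CPM in non-Tfh libraries. It too showed no overlap and fell by 1.50 ± 0.303 (2.82-fold, adjusted p = 0.0337), and the adjusted p was 0.151 without Tfh T32, 0.084 without Tfh T53 and 0.113 without non-Tfh T32.

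The most abundant gene of this family, Myo9b, a motor that also switches off a small GTPase, was at 253 and 234 CPM in Tfh and 263 and 296 CPM in non-Tfh libraries (log2 fold change -0.20 ± 0.125, adjusted p = 0.44). Its relative Myo9a was at 39.3 and 59.3 CPM against 43.3 and 57.7 CPM, with overlapping groups. Myo7a (log2 fold change 0.98, adjusted p = 0.0901), Myo6, the motor that walks to the pointed end (0.85, adjusted p = 0.118), and Myo19, a mitochondrial motor (-0.42, adjusted p = 0.345), did not overlap between groups and were not called. The counts of Myo3b were 1 over the Tfh and 15 over the non-Tfh libraries, a ratio of pooled counts of 11.9 in favour of non-Tfh (exact 95% interval 1.83 to 499.6, counting error only), and was not tested. Myo15 had 4 and 6 counts, Myo5b 3 and 0, Myo5c 1 and 5, Myo15b 2 and 0 and Myo16 0 and 1, while Myo3a, Myo7b and Myo18b had none.

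Tropomyosins, which decide which myosins and cutters reach a filament, held no called gene. Tpm4 was at 212 and 214 CPM in Tfh and 220 and 178 CPM in non-Tfh libraries. Tpm3 was at 320.0 and 284 CPM against 348 and 325 CPM, and Tpm1 at 37.1 and 36.4 CPM against 38.4 and 42.1 CPM. The log2 fold changes of the 4 tested genes lay between -0.15 and 0.09, and none had an unadjusted p under 0.05 in edgeR. DESeq2 and limma-voom called none. Per kilobase of all exons Tpm4 made up 57.5 to 65.0% of the Tpm1 to Tpm4 sum and Tpm3 31.3 to 37.9%, but with the length of the longest transcript Tpm3 led in every library (51.4 to 58.2% against 35.6 to 43.2%), so their order changes with the length used. The fourth tested gene, Tpm3-rs7, is a copy of Tpm3 that may take some of its reads, and Tpm2 and Tpm3-rs2 had no counts.

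All 7 Arpc subunits of the Arp2/3 complex were abundant, and none was called by edgeR, DESeq2 or limma-voom. In edgeR 1 of them, Arpc5l, had an unadjusted p under 0.05. Arpc2, a core subunit, was at 284 and 268 CPM in Tfh and 297 and 262 CPM in non-Tfh libraries. Arpc5 was at 221 and 210 CPM against 255 and 211 CPM, and Arpc1b at 451 and 381 CPM against 424 and 368 CPM. The log2 fold changes ran from -0.12 (Arpc5) to 0.34 (Arpc5l, adjusted p = 0.215). Subunit Arpc5l replaces Arpc5 in part of the complexes, and its share of the pair per kilobase was 21.0 and 18.9% in Tfh and 15.0 and 16.0% in non-Tfh libraries, without overlap.

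Coronins bind filament sides and recruit Arp2/3 and cofilin. Coro1a, the leukocyte coronin needed for T cell survival, was at 1127 and 1054 CPM in Tfh and 1301 and 1128 CPM in non-Tfh libraries. The groups met but did not overlap, and the log2 fold change was -0.16 ± 0.147 (adjusted p = 0.619). Per kilobase Coro1a made up 81.6 to 83.1% of the 6 coronins. Coro1b was at 184 and 164 CPM against 171 and 139 CPM, and Coro7, a Golgi coronin, at 158 and 166 CPM against 192 and 211 CPM (-0.31 ± 0.115, adjusted p = 0.175). Of the exon bases of Coro1b 13.5% are shared with Ptprcap on the same strand. Ptprcap was at 396.5 and 328.6 CPM in Tfh and 249.7 and 222.6 CPM in non-Tfh libraries. The part of such reads in the Coro1b level was not tested. Coro1c had a log2 fold change of -0.11 (adjusted p = 0.668), and Coro6 held 1 count over the Tfh and 4 over the non-Tfh libraries.

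Coro2a, the called coronin and also a part of the NCoR co-repressor complex (ENSMUSG00000028337, chromosome 4, 46536937 to 46602202), fell by 4.32 ± 0.278 on the log2 scale (20.0-fold, adjusted p = 0.000728). It was at 0.839 and 0.874 CPM in Tfh T32 and T53 and at 18.5 and 16.0 CPM in non-Tfh T32 and T53, which is 15 counts against 390. Every non-Tfh value was far above every Tfh value. A transcript on the opposite strand, Gm16731, covers 5.09% of its exon bases and was at 0 to 0.175 CPM. In bulk RNA such as this, fewer cells that hold a transcript and less of it per cell cannot be told apart.

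Of the 5 tested formins none was called by edgeR, DESeq2 or limma-voom, and 1 had an unadjusted p under 0.05 in edgeR. Fmnl1, a leukocyte formin, was at 252 and 253 CPM in Tfh and 320 and 307 CPM in non-Tfh libraries, without overlap (log2 fold change -0.31 ± 0.114, adjusted p = 0.17). Fmnl3 was at 67.8 and 97.4 CPM against 46.4 and 65.7 CPM (0.56 ± 0.236, adjusted p = 0.245). Diaph1, a formin activated by RhoA, was at 212 and 208 CPM against 232 and 232 CPM (-0.15 ± 0.11, adjusted p = 0.511). Diaph2 and Diaph3 overlapped between groups. Within the Fmnl genes Fmnl3 took 20.8 and 27.2% of the length-scaled level in Tfh and 12.4 and 17.3% in non-Tfh libraries. Fmnl2 had 8 counts in Tfh and 0 in non-Tfh libraries, too few for a fold.

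Profilin 1, Pfn1, was at 1014 and 895 CPM in Tfh and 808 and 672 CPM in non-Tfh libraries. Both Tfh values were higher, but the log2 fold change of 0.37 ± 0.157 had an adjusted p of 0.238. Pfn2 was at 4.78 and 8.74 CPM against 3.65 and 4.28 CPM (0.74 ± 0.369, adjusted p = 0.314), Pfn4 had 2 counts in each group and Pfn3 none. No profilin was called by edgeR, DESeq2 or limma-voom, and none had an unadjusted p under 0.05 in edgeR. In DESeq2 and in limma-voom 1 of the 2 tested profilins was higher in Tfh cells at an unadjusted p under 0.05.

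Among the genes that take filaments apart, cofilin 1 (Cfl1) was at 565 and 499 CPM in Tfh and 609 and 483 CPM in non-Tfh libraries, with overlap (log2 fold change -0.04 ± 0.161, adjusted p = 0.928). Cfl2 had a log2 fold change of -0.29 (adjusted p = 0.338). Twinfilins hold monomers and act on capped barbed ends. Twf1 (ENSMUSG00000022451, chromosome 15, 94577951 to 94589889) was at 61.8 and 76.8 CPM in Tfh and 39.3 and 38.5 CPM in non-Tfh libraries. Both Tfh values stood above both others, and the log2 fold change was 0.83 ± 0.145 (1.77-fold, adjusted p = 0.0212). Without Tfh T53 it was 0.68 with an adjusted p of 0.0909. Twf2 was at 76.6 and 63.5 CPM against 73.2 and 70.5 CPM, with overlap (-0.03 ± 0.133, adjusted p = 0.927). Twf1 thus made up 38.0 and 47.9% of the pair per kilobase in Tfh and 29.0 and 29.3% in non-Tfh libraries. Of the exon bases of Twf1 12.9% lie opposite exons of Irak4, which was at 47.6 and 48.8 CPM in Tfh and 39.2 and 38.0 CPM in non-Tfh libraries (log2 fold change 0.32, adjusted p = 0.191).

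Among the barbed-end cappers 1 gene was called. The CapZ heterodimer, made of an alpha chain (Capza1 or Capza2) and the beta chain Capzb, was uncalled. Capza1 was at 239 and 220.2 CPM in Tfh and 245 and 206 CPM in non-Tfh libraries, and Capza2 at 191 and 168 CPM against 200.0 and 174 CPM. Capzb was at 119 and 135 CPM against 105 and 95.3 CPM, without overlap (log2 fold change 0.34 ± 0.122, adjusted p = 0.165). Capza3, a testis form, had no counts.

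Capg, a calcium-dependent capper of the gelsolin family that does not cut filaments (ENSMUSG00000056737, chromosome 6, 72544391 to 72562983), was at 14.6 and 9.79 CPM in Tfh and 68.8 and 51.6 CPM in non-Tfh libraries. The groups lay far apart, and the gene fell by 2.27 ± 0.24 on the log2 scale (4.83-fold, adjusted p = 0.00467). It made up 4.20 and 2.95% of the length-scaled capper level in Tfh and 17.3 and 15.3% in non-Tfh libraries. Capg is also a gene of macrophages, whose summed markers are given above with Myo1f. The part of such cells in its level was not tested.

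**Figure D4:**
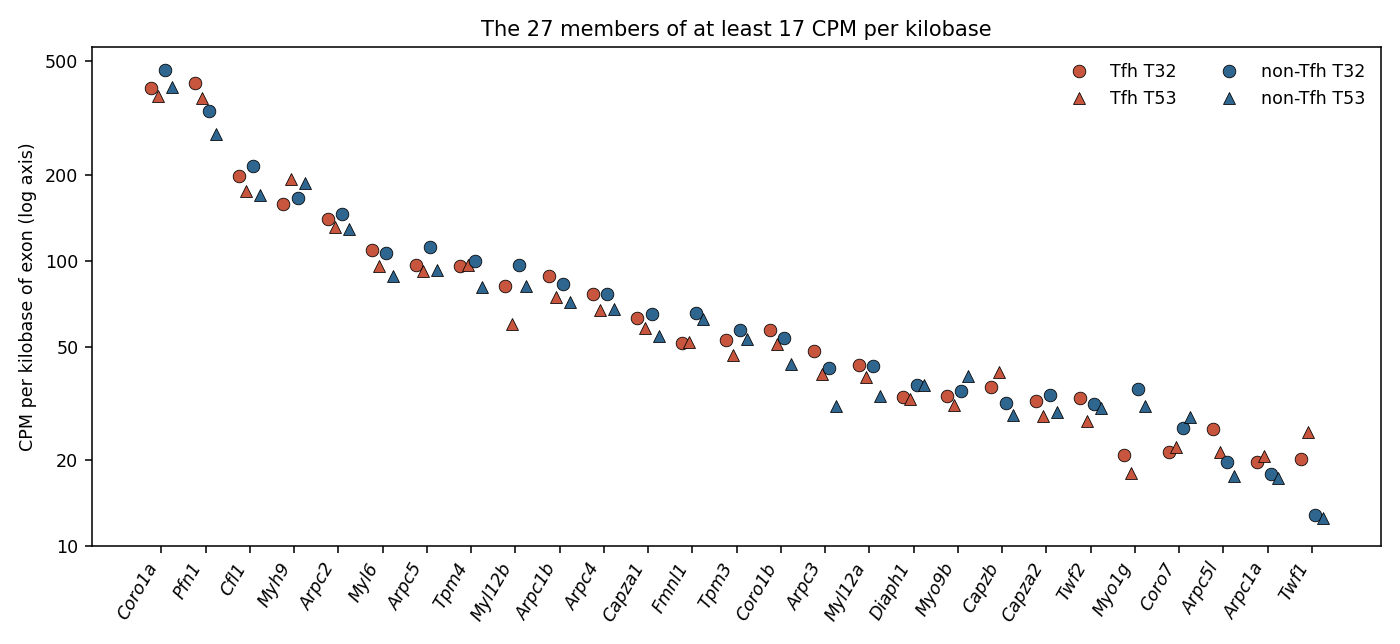
CPM per kilobase of exon (log axis) of the 27 members with a mean of at least 17, in order of their mean, with 1 point per library. Of these Twf1 was called higher and Myo1g lower. The 25 others had log2 fold changes between -0.33 and 0.37, and 11 of them did not overlap between groups. The limit of 17 was set for the figure, and members below it, such as Capg and Fmnl3, are not drawn.

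The call of 6 of the 9 members depended on single libraries, and their direction did not in any fit that gave a value. Coro2a, Capg and Myo1f kept an adjusted p under 0.05 with each library left out in turn. Without Tfh T53, 0 members were called higher by edgeR and 3 lower, in place of 3 and 6, beside 6 higher at an unadjusted p under 0.05.

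**Figure D5:**
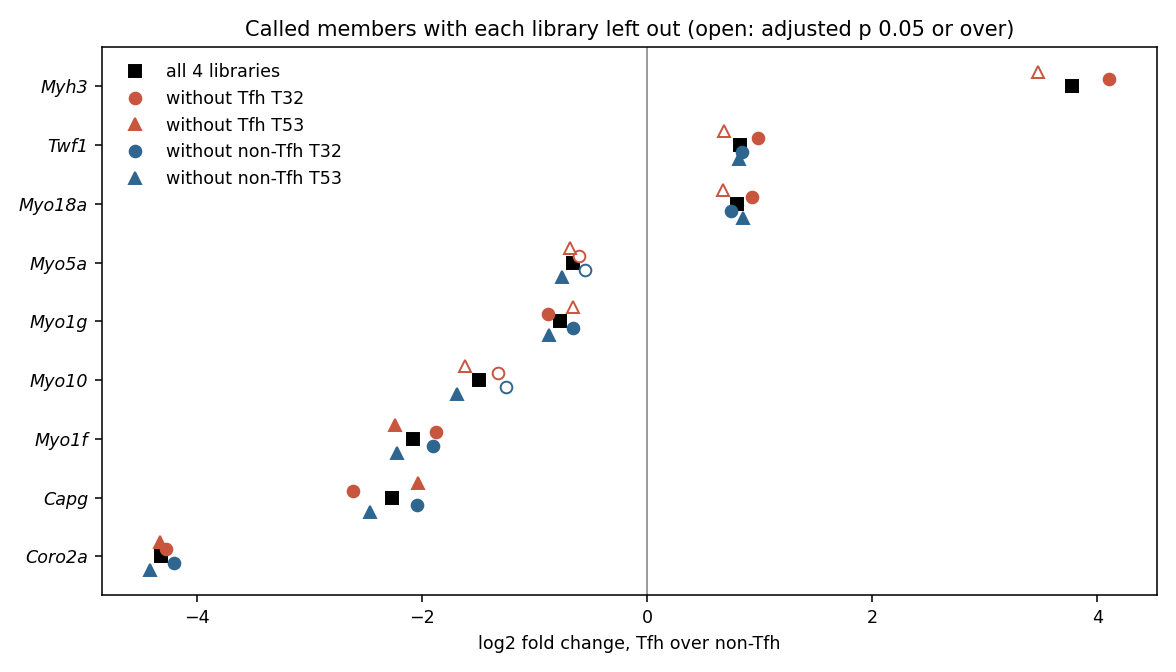
Log2 fold change (Tfh over non-Tfh) of the 9 called members with all 4 libraries (squares) and with each library left out; open symbols have an adjusted p of 0.05 or over. No symbol crosses 0, and the symbols of Coro2a, Capg and Myo1f are all filled; folds that would rest on 3 counts or fewer (Myh3 without either non-Tfh library) are not drawn.

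The other genes of the actin cytoskeleton were read from 5 lists that hold no member, with 124 genes, of which 103 were tested. Of these 2 were called higher (Abi2 and Marcksl1) and 18 lower, which is 19.4% in either direction against the 8.49% of all genes tested, and the median log2 fold change was -0.03. The lower calls include Eps8, Actn2 and Vcl, which passed the filter on low counts through the non-Tfh group, so this share is a description and not support for a change of the lists. Actin itself was not called, with Actb at 9173 and 9601 CPM in Tfh and 8837 and 7657 CPM in non-Tfh libraries (log2 fold change 0.19 ± 0.168, adjusted p = 0.601). None of the 7 tested genes of monomers and their binders, among them the Arp2/3 core genes Actr2 and Actr3, was called by edgeR or DESeq2 or had an unadjusted p under 0.05 in edgeR.

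Of 22 tested crosslinkers and membrane linkers 8 fell and 1 rose. Iqgap2, a scaffold of Rac and Cdc42, was at 61.1 and 55.1 CPM in Tfh and 182 and 188 CPM in non-Tfh libraries (log2 fold change -1.67 ± 0.117, adjusted p = 0.00113). Tagln2, a calponin relative that stabilises filaments, was at 28.4 and 26.9 CPM against 116 and 79.4 CPM (-1.82 ± 0.203, adjusted p = 0.0057). Actn1, an alpha-actinin that bundles filaments, was at 121 and 92.0 CPM against 264 and 244 CPM (-1.25 ± 0.159, adjusted p = 0.00778). None of the 3 overlapped between groups, and each kept its call with any library left out.

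The 4 called genes among 14 tested severing, capping and pointed-end proteins were all lower. The counts of Eps8, a capper and bundler, were 1 over the Tfh and 54 over the non-Tfh libraries, a ratio of pooled counts of 42.7 (exact 95% interval 7.35 to 1718, counting error only). Rcsd1, a partner of CapZ, fell by 0.70 (adjusted p = 0.02), and Svil, supervillin, by 0.80 (adjusted p = 0.0364). Without Tfh T53 the adjusted p was 0.136 for Rcsd1 and 0.158 for Svil, and without non-Tfh T53 it was 0.0624 for Svil.

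Of 19 tested activators of Arp2/3, 1 fell and 1 rose, both from the WAVE complex. Nckap1 was at 2.60 and 2.10 CPM in Tfh and 8.80 and 10.02 CPM in non-Tfh libraries (log2 fold change -1.97 ± 0.28, adjusted p = 0.0111). Abi2 was at 80.5 and 89.9 CPM against 55.2 and 59.9 CPM (0.57 ± 0.123, adjusted p = 0.0421), and its adjusted p lay between 0.0511 and 0.223 with any 1 library left out. Of 41 tested small GTPases, their regulators and actomyosin kinases 5 fell and none rose in edgeR, while DESeq2 called 1 higher and 4 had higher values at an unadjusted p under 0.05 in edgeR. The kinase Stk10, which phosphorylates ERM proteins, fell by 0.85 (adjusted p = 0.0105), and the exchange factors Dock10 and Dock2 by 0.69 (adjusted p = 0.0297) and 0.67 (adjusted p = 0.033). The adjusted p was 0.0596 without Tfh T53 for Stk10, 0.0778 to 0.154 for Dock10 without either Tfh library or without non-Tfh T53, and 0.0774 to 0.152 for Dock2 without any 1 library.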

How the data were processed

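The deposited values are raw read counts for each Ensembl gene, made with TopHat2, Bowtie2 and HTSeq on GRCm38 (mm10), per the submitters' processing notes. Versions, annotation release and the strand setting of the counting are not given in the sources used here, although the labels name a stranded kit, so reads of genes with exons on opposite strands may not have been told apart. How reads that match several copies of a gene were counted is likewise not given. All values start from these counts. A list of gene names gave symbols for 37607 of 39179 identifiers, and a GENCODE M21 annotation of GRCm38 gave positions and exon lengths. The 1572 without a symbol carried 0.209 to 0.228% of a library's counts and were kept in its total.

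Groups and library numbers came from the sample titles. The counts of 2 Tfh and 2 non-Tfh libraries were fitted on all genes in R 4.3.3 with edgeR 4.0.16: filterByExpr by group (11702 genes kept), TMM scaling (factors 0.966 to 1.03), robust quasi-likelihood fits with the group as the sole term (2 residual degrees of freedom), two-sided tests, and the Benjamini-Hochberg method across every tested gene at a threshold of 0.05. Each SE was derived from the fold change and its F statistic and so restates the test. Replicates varied by a biological coefficient of 0.156. Alternatives were RLE scaling, DESeq2 1.42.0, limma-voom (limma 3.58.1), no count filter, at least 5 CPM in 2 libraries, dispersions fitted without robustness, the library number as a block, and each library left out. One count was worth 0.0748 to 0.175 CPM, which limits genes of a few CPM. Tables used Python 3.11.15, numpy 2.4.6, pandas 2.3.3 and scipy 1.17.1, figures matplotlib 3.10.9, and the fitting code was tested on simulated data.

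One member is not reported here, nor counted among the members; every other one was accounted for: full values for those called, values per library for up to 3 of the highest length-scaled level in a family, and counts or ranges for the others. Of each list of other actin genes up to 3 called genes with the smallest adjusted p were named, or the gene of the highest level if none was. Members with fewer than 10 counts in all have no fold. The Fmnl2, Myo3b, Myl4, Myo1d, Myo1e, Myo1h, Myo6, Myo7a, Myo19, Arpc5l, Coro1c, Cfl2, Diaph2, Diaph3, Marcksl1, Actr2 and Actr3 remarks fall outside that rule and were chosen after values were seen. The members and lists were chosen with earlier results of these data known. Marker lists of 67 genes covered T cells, B cells, macrophages and monocytes, dendritic cells, granulocytes, platelets, fibroblastic stroma and smooth muscle, striated muscle and endothelium. Promoter windows came from RefSeq (GRCm38.p6).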

Additional observations from a re-analysis of the deposited data

How the results depend on the processing

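The 3 members called higher and 6 called lower were the same genes under RLE scaling, limma-voom and fits without the robust option, and all 9 were again called by DESeq2 (4 and 6). Without a count filter 8 were higher and 8 lower, and with at least 5 CPM in 2 libraries 2 were higher and 6 lower, as that filter removes Myh3. With 1 library left out, where the lone library of a group is taken to vary like the other group, 0 to 4 members were higher and 3 to 6 lower. Of the other actin genes 2 were higher and 18 lower; DESeq2 gave 5 higher, limma-voom 1 and no count filter 7, and with 1 library left out 0 to 1 were higher and 6 to 14 lower. The 0 of the other actin genes, without Tfh T53 in edgeR, stands beside 6 higher at an unadjusted p under 0.05. The cause of these shifts was not tested. With a block for the library number 10 members were higher and 10 lower, and 9 other actin genes higher and 23 lower, all main calls among them. By family this block called 1 formin higher and 2 lower, and 1 light chain lower. It called 3 class 1 myosins, 1 Arp2/3 subunit and 1 profilin higher. None of these was called in the main fit. The block also called 2 coronins lower and 2 other unconventional myosins higher, against 1 and 1 in the main fit. Without a count filter 3 class 1 myosins were called higher, 1 formin higher and 1 lower, and 1 light chain lower. DESeq2 called 1 class 1 myosin higher. Only the number is shared by the pairs, as no label says what it marks, and with 2 pairs the deviations of same-numbered libraries correlated at 0.37. No called gene changed direction in any fit, while 12 uncalled named ones near 0, Myh9 and Myl12a among them, took the other sign with some library left out (log2 fold changes from -0.10 to 0.24). Counts not divided by length move the share of Arpc5l in the Arpc5 and Arpc5l sum to 34.4 and 31.5% in Tfh and 25.8 and 27.3% in non-Tfh libraries, and that of Capg among the cappers to 2.59 and 1.84% against 11.1 and 9.78%. Fits without a non-Tfh library give no fold for Myh3, since a group then kept 3 counts or fewer. Members of a few CPM are limited by depth: in Tfh T53, the shallowest library, 1 count was worth 0.175 CPM.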

Other observations

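Within each group the members differed between the library numbers along their length. Of 49 members with more than 3 counts in every library, 21 had at most 4000 bases of exon, and 15 of these were lower in T53 than in T32 in both groups while 1 was higher in both. Their median log2 ratio of T53 over T32 was -0.14 in Tfh and -0.24 in non-Tfh cells. Of the 8 members with at least 9000 bases of exon, 4 were higher in T53 in both groups and 0 were lower in both, with medians of 0.28 and 0.01. Over all genes with more than 3 counts in every library the medians were -0.07 and -0.11 for the 4985 short ones and 0.12 and 0.16 for the 1404 long ones. Both groups hold 1 library of each number, so a difference between numbers widens the spread within a group. Its part in the uncalled members was not tested.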
